A study of Mus musculus with 12 samples.

Results

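Chemokine receptors are the surface proteins through which leukocytes read gradients of chemokines, and 9 genes of this kind are described here in mouse brains collected 14 d post-stroke. They were taken by symbol: *Ccr1*, *Ccr2*, *Ccr7*, *Cxcr2*, *Cxcr3*, *Cxcr4*, *Cxcr6*, *Ackr3* and *Cmklr1*, each matched to its Ensembl identifier in the GENCODE M21 annotation, which gave 9 of the 49315 genes in the table of read counts. *Cmklr1* binds the chemoattractant protein chemerin and not a chemokine. *Ackr3* is an atypical receptor that binds chemokines without the usual G protein signal.

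The 12 libraries came from 6 mice transplanted with WT BM cells and 6 transplanted with *Tet2*-KO BM cells. All recipients were male CD45.1 Pep Boy mice on a C57Bl6 background with intact *Tet2*, between 8 and 12 weeks old when their heads were shielded and they were irradiated. The KO group received 10% CD45.2 *Tet2*-/- marrow and the WT group 10% CD45.2 *Tet2*+/+ marrow, each mixed with 90% CD45.1 *Tet2*+/+ marrow. At 8 to 10 weeks after transplantation the right middle cerebral artery of every mouse was occluded for 30 min, and brains were collected 14 d later. The knockout was therefore carried only by part of the blood cells, on top of a competing *Tet2*-sufficient marrow, and the brain cells of both groups kept the gene. The paper's results and discussion differ on whether the RNA was of the whole organ or of hemispheres, so the share of uninjured tissue in these libraries is not known here. The labels of the KO mice name control cells in their treatment entry, and the genotype and title entries, which give the KO group, were followed.

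Typical chemokine receptors cross the membrane with a bundle of helices, couple to inhibitory G proteins and turn a chemokine gradient into directed movement, after which G protein-coupled receptor kinases and arrestins switch them off. In the injured brain they are known for the entry of neutrophils, monocytes and lymphocytes, and some of them are also carried by microglia, astrocytes or vessel cells. A fall of such a transcript in bulk tissue can reflect fewer cells that carry it or less RNA in each of those cells, which cannot be told apart in these libraries.

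Total counts lay between 12000261 and 15340787 per library with WT BM cells and between 12625047 and 21049763 with *Tet2*-KO BM cells. Values are given as CPM, the counts of a gene per 1000000 counts of its library after TMM scaling, and tests are the quasi-likelihood F test of edgeR over 20290 genes with Benjamini-Hochberg adjustment. *Tet2* (ENSMUSG00000040943) lay between 126 and 147 CPM with WT BM cells and between 117 and 137 CPM with *Tet2*-KO BM cells, so these brain libraries hold no check of the genotype of the transplanted cells. Neuron markers summed to between 3870 and 6570 CPM and astrocyte markers to between 5640 and 7040 CPM in every library, as in brain tissue. WT replicate 2 and *Tet2*-KO replicate 5 stood at the top of their groups in the summed markers of monocytes, activated phagocytes, fibroblasts, neutrophils, T cells and B cells. WT replicate 2 was also the lowest of its group in the summed neuron markers. The fits of the receptors are therefore given with and without these libraries, and the marker sums over all libraries.

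As a look at the DNA in front of these genes, the 250 bases upstream of the RefSeq start (GRCm38.p6, the same build as mm10) were read for 8 of the 9 genes, and *Ccr7* was not among them. Of the windows, 3 that hold a searched motif are printed. *Cxcr4* (chr1:128592300-128592549, minus strand) and *Ackr3* (chr1:90203730-90203979, plus strand) share the ligand Cxcl12. *Ccr1* (chr9:123968693-123968942, minus strand) is a receptor of inflammatory chemokines and has the window with a match to the NF-kB consensus, which those of *Ccr2* and *Cxcr2* lack. Capitals mark matches to the GC box GGGCGG on either strand in the first 2 windows and to the NF-kB consensus in the third, all written 5′ to 3′ on the strand of the gene.
Cxcr4: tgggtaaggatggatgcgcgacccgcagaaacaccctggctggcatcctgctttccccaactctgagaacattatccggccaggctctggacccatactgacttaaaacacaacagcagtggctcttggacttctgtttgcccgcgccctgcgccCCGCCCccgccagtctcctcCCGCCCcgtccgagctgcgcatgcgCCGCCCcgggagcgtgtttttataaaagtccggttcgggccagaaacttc
Ackr3: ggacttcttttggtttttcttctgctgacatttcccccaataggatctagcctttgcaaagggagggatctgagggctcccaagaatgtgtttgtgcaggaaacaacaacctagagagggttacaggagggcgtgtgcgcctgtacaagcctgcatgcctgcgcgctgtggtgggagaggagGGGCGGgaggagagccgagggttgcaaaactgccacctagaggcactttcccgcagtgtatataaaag
Ccr1: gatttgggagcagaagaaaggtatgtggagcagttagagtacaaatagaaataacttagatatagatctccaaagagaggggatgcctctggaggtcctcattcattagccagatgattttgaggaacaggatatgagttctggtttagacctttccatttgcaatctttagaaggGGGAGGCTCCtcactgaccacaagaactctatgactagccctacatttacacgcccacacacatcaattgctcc
The *Cxcr4* window held 3 GC boxes, all on the opposite strand, and the *Ackr3* window held 1, whereas 32.7% of 32851 windows of the same length across the genome held at least 1. The NF-kB consensus of the *Ccr1* window was found in 7.25% of windows. The core motif of PU.1, GAGGAAGT, was found in 2.44% of windows and among these genes in that of *Cxcr3*. None of the 3 motifs was found in the windows of *Ccr2*, *Cxcr2*, *Cxcr6* or *Cmklr1*, but the window of *Cmklr1* belongs to a RefSeq start 6823 bases away from the GENCODE start of the gene, and those of *Ccr2* and *Cxcr3* to starts 233 and 122 bases away. G and C made up 61.2% of the *Cxcr4* window, 54.0% of the *Ackr3* window and 43.6% of the *Ccr1* window, around a median of 52.4% over all windows.

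The comparison asked whether receptor transcripts in the brain 14 d post-stroke differed with the genotype of the transplanted marrow. All 9 receptors passed the filter on low counts, and the log2 fold change of each was negative with *Tet2*-KO BM cells, although that of *Ackr3* was close to 0 and changed sign with upper quartile scaling. That filter keeps a gene that reaches its floor in as many libraries as a group holds, so high WT levels alone can keep it. *Cxcr2* and *Cxcr3* passed by their WT levels, with WT medians of 2.74 and 1.19 CPM against KO medians of 0.28 and 0.222 CPM. At an unadjusted p below 0.05, 7 of the 9 were lower, against 23.1% of all tested genes at that level, 12.2% lower and 10.8% higher. None passed an adjusted p of 0.05 in edgeR, where adjusted p over the 9 ran from 0.11 to 0.927 and only 0.0246% of all genes passed. The DESeq2 Wald test, which the study used, passed 3 of them (*Ccr7*, *Cxcr2* and *Cxcr4*) beside 3.32% of all genes that it passed as lower and 0.922% as higher. Limma-voom with weights for library quality passed 6 (the same 3 with *Ccr2*, *Cxcr3* and *Cmklr1*) beside 6.38%. *Ccr7*, *Cxcr2* and *Cxcr4* are among the receptors the study chose to display from these same libraries, so their direction is not independent evidence. The median log2 fold change of the 9 was -1.51, and that of all tested genes was 0.01. Because no receptor passed the adjusted threshold in edgeR, the differences below are given as values with their intervals.

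The outcome turned on the mouse with the highest receptor levels among those given *Tet2*-KO BM cells. *Tet2*-KO replicate 5 was the highest of its group in 7 of the 9 receptors, and only 2 of its receptors lay below every mouse with WT BM cells. In *Tet2*-KO replicates 1, 2 and 3, 8 of the 9 lay below every such mouse, with 5 in replicate 4 and 7 in replicate 6. Of all tested genes, 26.6%, 20.9% and 23.8% did so in replicates 1, 2 and 3, 13.3% in replicate 4, 12% in replicate 5 and 26.7% in replicate 6. Without replicate 5, edgeR passed 7 receptors at an adjusted p below 0.05, all but *Cxcr6* and *Ackr3*, beside 7.3% of all genes passed as lower, and the median log2 fold change of all 9 was -1.80. WT replicate 2 was the highest of its group in 8 of the 9. Without it, 4 receptors (*Ccr1*, *Ccr7*, *Cxcr2* and *Cxcr4*) were left at an unadjusted p below 0.05, beside 7.92% of all genes that were lower at that level in the same fit. None passed the adjusted threshold, and the median of all 9 was -1.27.

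**Figure D1:**
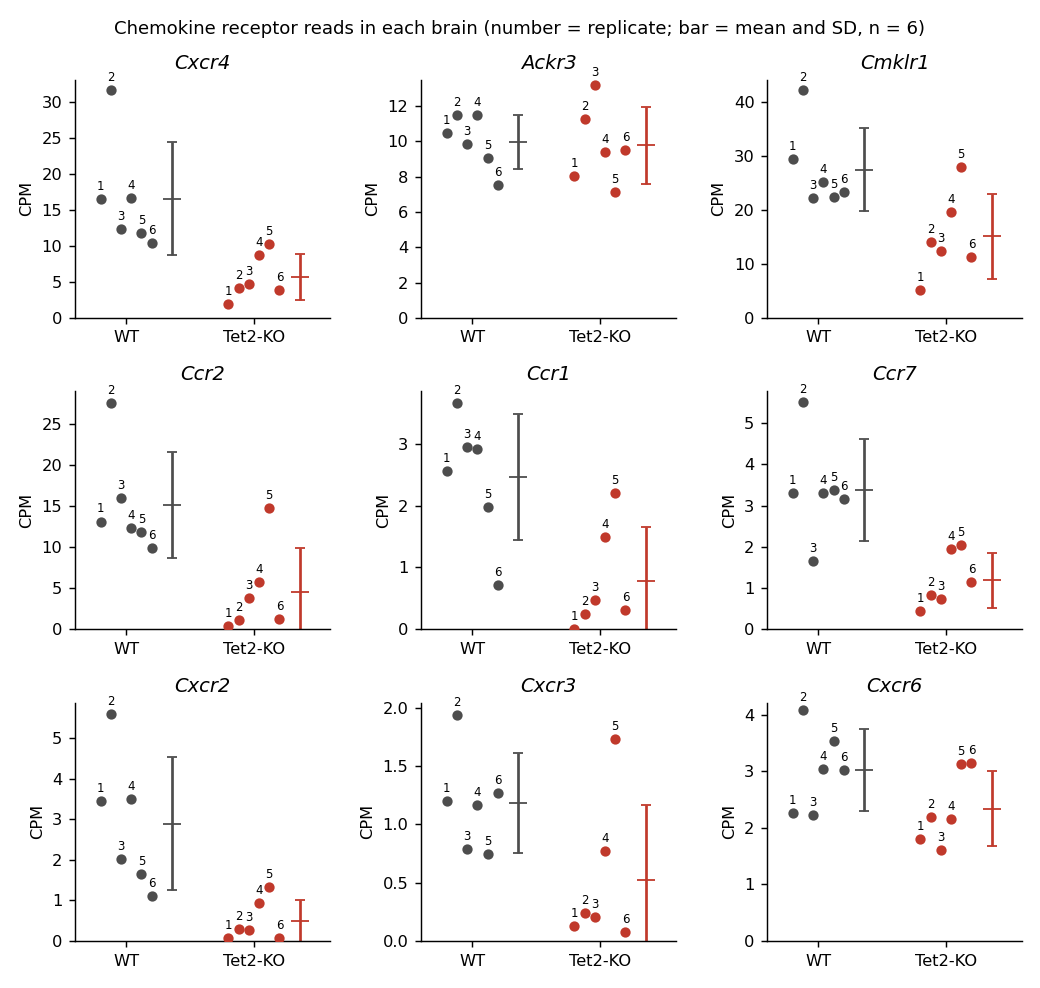
Reads of the 9 receptors in each brain in CPM (vertical axes from 0), with WT in grey and Tet2-KO in red, replicate numbers at the points, and the mean with its SD (n = 6) beside each group, cut off at 0 where the SD exceeds the mean. WT replicate 2 is the highest WT mouse in 8 of the 9 panels, Tet2-KO replicate 5 the highest Tet2-KO mouse in 7, and only in the Cxcr4 panel does every Tet2-KO mouse lie below every WT mouse.

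*Cxcr4* (ENSMUSG00000045382, chr1:128588199-128592293, minus strand, mm10) encodes the receptor for Cxcl12, which holds blood progenitors and neutrophils in the marrow and is carried by most leukocytes. With WT BM cells it lay at 10.4, 14.4 and 31.6 CPM in the lowest, median and highest mouse, and with *Tet2*-KO BM cells at 1.98, 4.44 and 10.3 CPM. The groups did not overlap, by a margin as small as the step from 10.3 to 10.4 CPM. This was so for *Cxcr4* alone of the 9 receptors, and 0.641% of all tested genes had every *Tet2*-KO library below every WT library, with 0.453% the other way round. The means were 16.5 ± 7.83 CPM (SD, n = 6) and 5.63 ± 3.17 CPM (SD, n = 6), a log2 fold change of -1.56 (SE 0.40, 95% interval -2.44 to -0.69) with an adjusted p of 0.115 in edgeR. Over the 19 alternatives the adjusted p ran from 0.0144 with DESeq2 to 0.23 without *Tet2*-KO replicate 3. In fits without each mouse in turn the log2 fold change lay between -1.80 and -1.27, and the unadjusted p stayed below 0.05 in 12 of 12. The ends of that range came without *Tet2*-KO replicate 5 (-1.80, adjusted p = 0.0224 in edgeR) and without WT replicate 2 (-1.27, 0.228).

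*Ackr3* (ENSMUSG00000044337, chr1:90203980-90216751, plus strand) encodes the other receptor for Cxcl12, which takes the chemokine up and degrades it and is known from vessels, neurons and glia more than from leukocytes. It lay at 7.54, 10.2 and 11.5 CPM with WT BM cells and at 7.14, 9.48 and 13.2 CPM with *Tet2*-KO BM cells, and both the lowest and the highest of the 12 mice were in the KO group. The log2 fold change was -0.03 (SE 0.14, 95% interval -0.33 to 0.27, adjusted p = 0.927 in edgeR), and the estimate was positive in 6 of 19 alternative fits. Differences of the size of either end of that interval are not excluded by these 12 mice. *Tet2*-KO replicate 5, the top mouse for most of the receptors, was the lowest of its group for *Ackr3*.

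For each read of *Ackr3* there were 1.25, 1.41 and 2.76 reads of *Cxcr4* in the lowest, median and highest mouse with WT BM cells and 0.246, 0.39 and 1.44 with *Tet2*-KO BM cells, a ratio that does not depend on library scaling. On the log2 scale it averaged 0.63 ± 0.42 (SD, n = 6) and -0.97 ± 0.97 (SD, n = 6), and the groups overlapped. Without *Tet2*-KO replicate 5 the KO mean was -1.27 ± 0.70 (SD, n = 5) and the groups did not overlap, and without WT replicate 2 the WT mean was 0.47 ± 0.13 (SD, n = 5) and they did. The shared ligand *Cxcl12* was at 88.5, 114 and 150 CPM with WT BM cells and at 51.4, 69.3 and 112 CPM with *Tet2*-KO BM cells. Its log2 fold change of -0.64 (SE 0.19, adjusted p = 0.123 in edgeR) was thus nearer to 0 than that of *Cxcr4*.

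**Figure D2:**
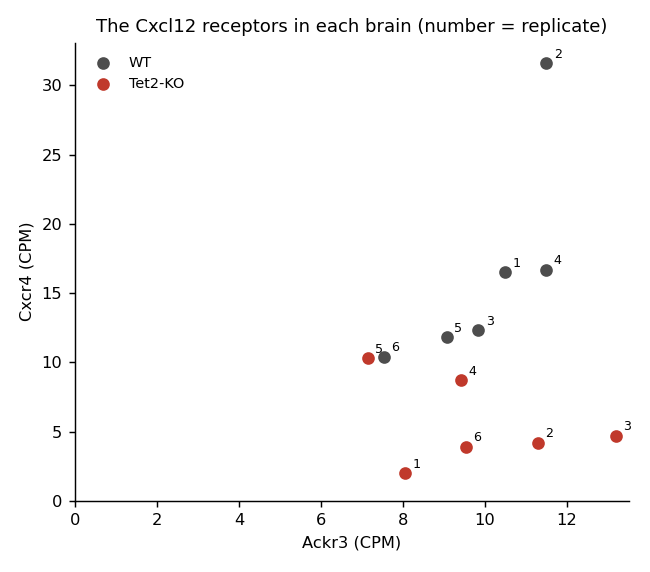
Cxcr4 against Ackr3 in each of the 12 brains, both in CPM from 0, with replicate numbers. Ackr3 spans much the same range in both groups, while Cxcr4 lies between 10.4 and 31.6 in the WT mice (grey) and between 1.98 and 10.3 in the Tet2-KO mice (red).

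*Ccr2* (ENSMUSG00000049103, chr9:124101950-124113557, plus strand) encodes the receptor that brings classical monocytes out of the marrow and into inflamed tissue. It lay at 9.84, 12.7 and 27.5 CPM with WT BM cells and at 0.434, 2.57 and 14.7 CPM with *Tet2*-KO BM cells, so that 5 of 6 KO mice were below every WT mouse and replicate 5 was inside the WT range. On the log2 scale the difference was -1.78 (SE 0.65, 95% interval -3.21 to -0.35, adjusted p = 0.155 in edgeR). Over 18 alternatives the adjusted p ran from 0.0198 to 0.327. The lowest came without *Tet2*-KO replicate 5, where the log2 fold change was -2.56 and the groups did not overlap, and the highest without WT replicate 2, where it was -1.52 and no longer at an unadjusted p below 0.05. The ligands of Ccr2 are monocyte chemoattractants made by phagocytes and vessel cells, and they too had negative log2 fold changes, of -1.69 for *Ccl2* (adjusted p = 0.127 in edgeR), -2.10 for *Ccl7* (0.11) and -1.14 for *Ccl12* (0.128). Of 8 monocyte markers, 7 were lower at an unadjusted p below 0.05. The sum of the list, most of which is *Fn1*, ran from 433 to 868 CPM with WT BM cells. With *Tet2*-KO BM cells it ran from 157 to 526 CPM, with the highest KO value again in replicate 5. The part of monocyte numbers in the *Ccr2* difference was not tested.

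*Ccr1* (ENSMUSG00000025804, chr9:123962124-123968692, minus strand) is a neighbour of *Ccr2* on chromosome 9 and serves neutrophils, monocytes and macrophages. It was counted 9 to 51 times per library with WT BM cells and 0 to 29 times with *Tet2*-KO BM cells, and the library with 0 counts, replicate 1, allows up to 0.186 CPM (3 counts, counting error only). It lay at 0.714, 2.74 and 3.66 CPM against 0, 0.389 and 2.2 CPM, with 4 of 6 KO mice below every WT mouse. The estimate on the log2 scale was -1.69 (SE 0.60, 95% interval -3.00 to -0.38, adjusted p = 0.147 in edgeR), and the unadjusted p stayed below 0.05 in 12 of 12 fits without a mouse. Over 18 alternatives its adjusted p was lowest, at 0.0339, when *Tet2*-KO replicate 5 was left out and highest, at 0.308, when WT replicate 2 was. All 5 ligands assigned to it, *Ccl3*, *Ccl5*, *Ccl6*, *Ccl7* and *Ccl9*, were lower at an unadjusted p below 0.05, with log2 fold changes from -2.10 for *Ccl7* to -0.80 for *Ccl3*. *Ccl5*, a chemokine of T cells and macrophages, had every KO mouse below every WT mouse, although the highest KO and the lowest WT mouse both round to 3.09 CPM.

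*Cxcr2* (ENSMUSG00000026180, chr1:74153989-74161246, plus strand) encodes the main receptor that calls neutrophils into tissue. The difference between the groups was the widest of the 9, with counts of 14 to 78 per library with WT BM cells and 1 to 18 with *Tet2*-KO BM cells. It lay at 1.11, 2.74 and 5.59 CPM against 0.062, 0.28 and 1.33 CPM, with replicate 5 of the KO group inside the WT range and the other 5 below it. The log2 fold change was -2.56 (SE 0.56, 95% interval -3.78 to -1.34), or 5.91-fold lower with *Tet2*-KO BM cells, with an adjusted p of 0.11 in edgeR and 0.0144 in DESeq2. Over 18 alternatives that p ran from 0.0138 without *Tet2*-KO replicate 5, where the log2 fold change was -3.02, to 0.23 without *Tet2*-KO replicate 3. Without WT replicate 2 the log2 fold change was -2.27 with an adjusted p of 0.214. Its neutrophil-attracting ligands *Cxcl1* and *Cxcl5* had log2 fold changes of -2.66 (adjusted p = 0.0816) and -1.81 (adjusted p = 0.123) in edgeR, and for each of these every KO mouse was below every WT mouse. *Cxcl2* was too low to be tested, at 112 counts over the 6 WT libraries and 18 over the 6 KO libraries, as were *Cxcl3* (4 and 4) and *Ppbp* (9 and 6).

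Neutrophil markers were scarce in these brains. Of the 10 listed, 3 were tested, and all 3 were lower at an unadjusted p below 0.05, with *S100a8* and *S100a9* at an adjusted p of 0.0364 each in edgeR. *Ly6g* was counted at most 1 time and *Elane* at most 2 times in a library. The other untested markers had few counts, summed here over the WT and over the KO libraries without scaling. These were 61 and 58 for *Ngp*, 46 and 47 for *Retnlg*, 25 and 29 for *Mpo*, 17 and 15 for *Camp* and 33 and 18 for *Ltf*. In CPM the WT and KO medians were 0.716 and 0.387 for *Ngp* and 0.359 and 0.116 for *Ltf*. They were 0.555 and 0.498 for *Retnlg*, 0.322 and 0.3 for *Mpo* and 0.19 in both groups for *Camp*. The tested markers were thus lower with *Tet2*-KO BM cells, and no direction is read from the untested ones, whose counts were few. The sum of the list, most of which is *Csf3r*, a gene also carried by microglia, ran from 70.1 to 151 CPM with WT BM cells and from 23.5 to 78.1 CPM with *Tet2*-KO BM cells. Its part in the *Cxcr2* difference was not tested.

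*Ccr7* (ENSMUSG00000037944, chr11:99144196-99155077, minus strand) guides mature dendritic cells and naive T cells towards lymph nodes. It lay at 1.65, 3.31 and 5.52 CPM with WT BM cells and at 0.434, 0.99 and 2.04 CPM with *Tet2*-KO BM cells, and 5 of 6 WT mice were above every KO mouse. The WT mouse inside the KO range was replicate 3. The log2 fold change of -1.51 had a narrower error than those of the monocyte receptors (SE 0.34, 95% interval -2.24 to -0.79), with an adjusted p of 0.11 in edgeR. Over 18 alternatives the adjusted p ran from 0.00314 in DESeq2 to 0.23 without *Tet2*-KO replicate 3, and the log2 fold change lay between -1.76 and -1.32 in the fits without a mouse. It was -1.70 without *Tet2*-KO replicate 5 (adjusted p = 0.0142 in edgeR) and -1.32 without WT replicate 2 (0.214). Its ligands could not be tested, since *Ccl21a* had no counts and *Ccl19* had 17 counts over the WT and 3 over the KO libraries. Of 8 dendritic cell markers, 4 were lower at an unadjusted p below 0.05, while their sum, mostly *Fscn1* which neurons also express, was 249 to 261 CPM with WT BM cells and 235 to 272 CPM with *Tet2*-KO BM cells.

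*Cxcr3* (ENSMUSG00000050232, chrX:101731535-101734269, minus strand) is the receptor of effector T cells and natural killer cells for the interferon-induced chemokines. With 9 to 27 counts per WT library and 1 to 22 per KO library it had the fewest counts of the 9 in the WT group. It lay at 0.742, 1.19 and 1.94 CPM against 0.0769, 0.222 and 1.73 CPM, and *Tet2*-KO replicate 5 at 1.73 CPM exceeded all but 1 WT mouse. Its mean difference was -1.23 on the log2 scale (SE 0.53, 95% interval -2.38 to -0.09, adjusted p = 0.19 in edgeR), and the unadjusted p stayed below 0.05 in 4 of 12 fits without a mouse. Without *Tet2*-KO replicate 5 it was -1.93 with an adjusted p of 0.0172, the lowest of 18 alternatives, and without WT replicate 2 it was -1.04 with an adjusted p of 0.384, the highest. Among its ligands, *Cxcl10* had a log2 fold change of -1.26 (adjusted p = 0.131 in edgeR) and *Cxcl9* of -0.67 (adjusted p = 0.299), and *Cxcl11*, with 24 counts over the WT and 10 over the KO libraries, was not tested.

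*Cxcr6* (ENSMUSG00000048521, chr9:123806475-123811760, plus strand), the receptor for Cxcl16 on effector and tissue-resident T cells, had a smaller estimate. It lay at 2.23, 3.03 and 4.09 CPM with WT BM cells and at 1.61, 2.17 and 3.15 CPM with *Tet2*-KO BM cells, and 4 of 6 KO mice were below every WT mouse while the other 2 were inside the WT range. That estimate was -0.39 on the log2 scale (SE 0.20, 95% interval -0.81 to 0.04, adjusted p = 0.256 in edgeR), with adjusted p from 0.132 to 0.505 over 19 alternatives. Its ligand *Cxcl16*, made by macrophages, microglia and dendritic cells, was at 13.3, 17.4 and 30.6 CPM against 3.1, 8.87 and 14.4 CPM, with a log2 fold change of -1.12 (SE 0.33, adjusted p = 0.123 in edgeR). T cell markers stood beside these receptors with 6 of 10 tested and all 6 lower at an unadjusted p below 0.05. Their sum ran from 13.6 to 19.7 CPM with WT BM cells and from 4.4 to 13.2 CPM with *Tet2*-KO BM cells. All 6 KO mice were thus below every WT mouse, by a margin as small as the step from 13.2 to 13.6 CPM. Over the WT and the KO libraries, the untested markers had 49 and 28 unscaled counts for *Cd3d* and 63 and 37 for *Cd3g*. *Cd2* had 80 and 43 and *Gzmb* 43 and 38, and for *Gzmb* 1 KO mouse exceeded every WT mouse in CPM. *Cd3d*, *Cd3g* and *Gzmb* had 0 counts in at least 1 KO library. In stained brain sections at the same time after stroke, however, the paper found similar numbers of T cells in both groups. The part of T cell numbers in the *Cxcr3*, *Cxcr6* and *Ccr7* differences was not tested.

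*Cmklr1* (ENSMUSG00000042190, chr5:113612354-113650426, minus strand), the chemerin receptor of macrophages, microglia and plasmacytoid dendritic cells, had the most counts of the 9, from 271 to 589 per WT library and from 84 to 380 per KO library. It lay at 22.2, 24.1 and 42.2 CPM with WT BM cells and at 5.2, 13.3 and 27.9 CPM with *Tet2*-KO BM cells, and 5 of 6 KO mice were below every WT mouse. The difference was -0.87 on the log2 scale (SE 0.33, 95% interval -1.61 to -0.13, adjusted p = 0.167 in edgeR). It was -1.12 with an adjusted p of 0.0383 without *Tet2*-KO replicate 5 and -0.70 with an adjusted p of 0.352 without WT replicate 2, and these adjusted p are the lowest and highest over 19 alternatives. Chemerin itself, encoded by *Rarres2*, had a log2 fold change of -0.31 (95% interval -0.77 to 0.14, adjusted p = 0.402 in edgeR). Among 8 microglia markers only *Fcrls* was lower at an unadjusted p below 0.05, with a summed level of 558 to 988 CPM against 266 to 698 CPM, whereas 7 of 8 markers of activated phagocytes were, with 1120 to 2900 CPM against 80.1 to 1630 CPM. Their part in the *Cmklr1* difference was not tested. In stained brain sections the paper found similar numbers of macrophages in both groups at this time after stroke.

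**Figure D3:**
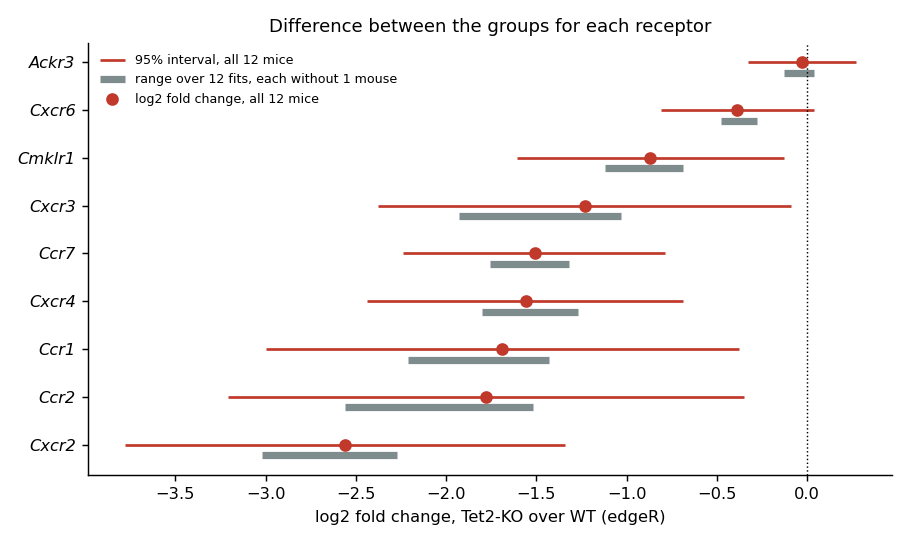
Log2 fold change of each receptor between mice with Tet2-KO and WT BM cells (horizontal axis, dotted line at 0), with red points and lines for the estimate and 95% interval from all 12 mice and grey bars for the range over 12 fits that each leave out 1 mouse. Cxcr2 lies farthest from 0 at -2.56, and Ackr3 at -0.03 is the one whose grey bar crosses 0.

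Per exon length, as RPKM computed from CPM, the order of the receptors with WT BM cells began with *Cxcr4* (median 7.95 RPKM) and *Cmklr1* (7.08), followed by *Ackr3* (3.04), *Ccr2* (1.87), *Ccr7* (1.67), *Cxcr6* (1.57), *Ccr1* (0.966), *Cxcr2* (0.897) and *Cxcr3* (0.685). Neighbours in this order overlapped between mice except for *Cmklr1* and *Ackr3*. With *Tet2*-KO BM cells *Cmklr1* (3.89 RPKM) and *Ackr3* (2.83) came before *Cxcr4* (2.46), then *Cxcr6* (1.13), *Ccr7* (0.501), *Ccr2* (0.38), *Ccr1* (0.137), *Cxcr3* (0.128) and *Cxcr2* (0.092), and all neighbours overlapped. *Cxcr4* thus stood at the top of the order in one group and in the third place in the other.

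**Figure D4:**
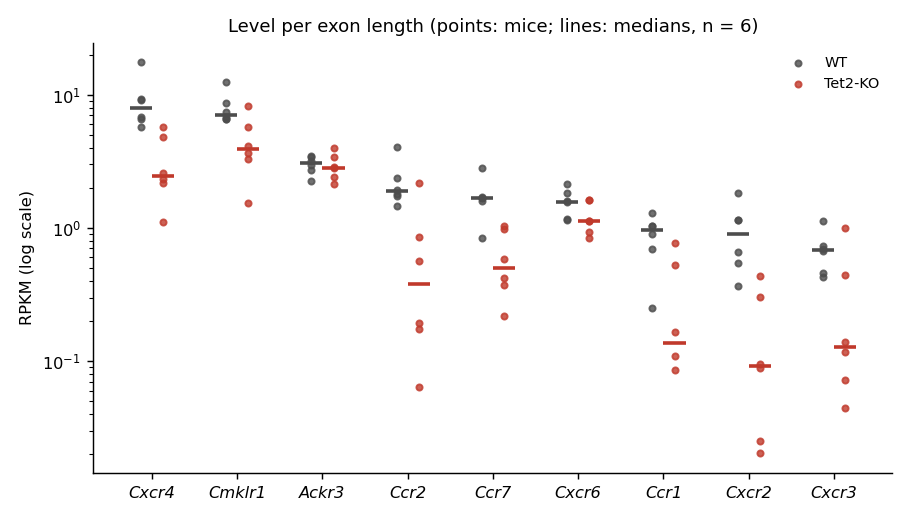
Level of each receptor per exon length (RPKM, log scale) in each mouse, WT in grey and Tet2-KO in red, with a line at the median of 6 mice, in the order of the WT medians. The Tet2-KO mouse with 0 counts of Ccr1 cannot be drawn on a log axis, and the medians run from 7.95 to 0.685 in the WT and from 3.89 to 0.092 in the Tet2-KO group.

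The ligand list held 22 genes that encode ligands of chemokine receptors, of which 16 were tested. All 16 had a negative log2 fold change with a median of -1.34, 14 were at an unadjusted p below 0.05, and none passed the adjusted threshold in edgeR. Over all tested genes 12.2% were lower and 10.8% higher at that level, which also stands beside the other lists. DESeq2 passed 7 as lower, beside 3.32% of all genes. *Ccl4*, *Ccl5*, *Ccl7* and *Cxcl1* are among the genes the study displayed as lower from these same libraries, so their direction is not independent evidence. *Ccl4* and *Ccl8*, which were not assigned to any of the 9 receptors, had log2 fold changes of -1.49 (adjusted p = 0.114 in edgeR) and -2.24 (0.123). For *Cxcl1*, *Ccl5* and *Cxcl5* every KO mouse was below every WT mouse, as for 0.641% of all tested genes. *Cxcl9* and *Rarres2* were the tested ligands that did not reach an unadjusted p of 0.05.

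**Figure D5:**
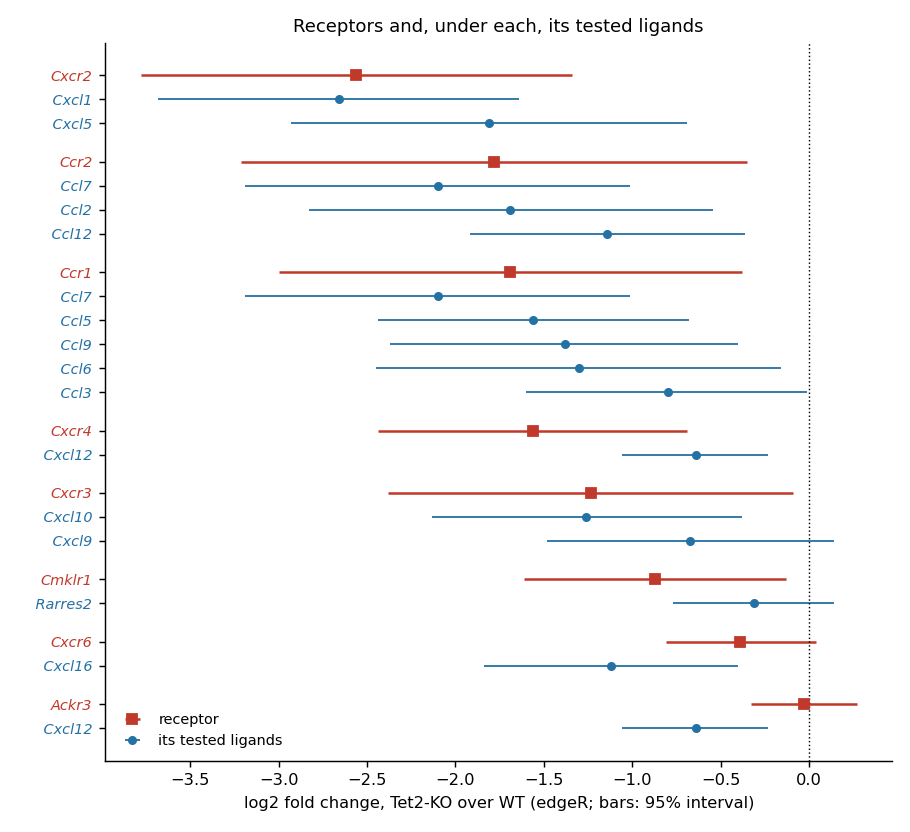
Log2 fold change between mice with Tet2-KO and WT BM cells for 8 receptors (red squares) and, under each, its tested ligands (blue circles), with 95% intervals from edgeR and a dotted line at 0. Ligands of more than 1 receptor are repeated; the values run from -2.66 for Cxcl1 to -0.03 for Ackr3, and Ccr7 is left out because neither of its ligands was tested.

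Among 19 other receptors for chemoattractants, 11 were tested, with a median log2 fold change of -0.34. At an unadjusted p below 0.05, 4 of them were lower and 2 were higher, and none passed the adjusted threshold in edgeR. The lower ones were the chemerin-binding *Ccrl2* (log2 fold change -1.31), *Xcr1* of cross-presenting dendritic cells (-1.56) and the complement receptors *C5ar1* (-1.41) and *C3ar1* (-1.08), of which DESeq2 passed *Ccrl2* and *Xcr1* at adjusted p of 0.00384 and 0.0174. The higher ones were the scavenging receptors *Ackr1* (0.24) and *Ackr2* (0.44), which like *Ackr3* do not signal through G proteins. *Ackr4* of the same family had a log2 fold change of -0.06 (adjusted p = 0.886 in edgeR) and *Ackr3* of -0.03, so the family did not rise as a whole. *Cx3cr1*, the fractalkine receptor of microglia, had a log2 fold change of -0.34 (adjusted p = 0.471 in edgeR).

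Of 32 genes that carry the signal of these receptors, 31 were tested. Their median log2 fold change was -0.30, with 18 at an unadjusted p below 0.05 and lower and 4 at that level and higher. The smallest p among the lower ones belonged to *Pik3cd*, a leukocyte phosphoinositide kinase (log2 fold change -0.58), *Gnai3*, an inhibitory G protein subunit (-0.30), and *Rgs1*, which ends G protein signals (-1.42). Those among the higher ones were *Gng2* (0.24), *Gnai1* (0.22) and *Arrb1* (0.14), which encode 2 G protein subunits and an arrestin abundant in neurons. None passed the adjusted threshold in edgeR, and DESeq2 passed 5 as lower and 2 as higher. Of 8 neuron markers all 8 were higher at an unadjusted p below 0.05, with a median log2 fold change of 0.23, and their part in these values was not tested.

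The genes whose profile over the 12 mice lay nearest to that of a receptor were looked for among 14780 genes with at least 30 counts in every library, as the root mean square difference of centred log2 CPM, for the 3 receptors that meet the same minimum. For *Cxcr4*, whose own spread over the mice was 1.04 on that scale, they were *Slc11a1*, a metal transporter of phagocytes (0.171), *Hmox1*, heme oxygenase (0.178), and *Dcn*, decorin of fibroblasts (0.186). For *Cmklr1*, with a spread of 0.757, they were *C1qb* (0.0847), *Ctss* (0.0868) and *Nckap1l* (0.0993), which belong to complement, lysosomal proteolysis and the leukocyte cytoskeleton. For *Ackr3*, with a spread of 0.254, they were *Nr2e1* (0.147), a nuclear receptor of neural progenitors, *Rac3* (0.15) and *Phf13* (0.152), so the nearest genes to *Ackr3* were at more than a small part of its own spread.

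Markers of other cell types were looked at beside the receptors. All 6 fibroblast markers were lower at an unadjusted p below 0.05, with a sum of 581 to 1310 CPM against 147 to 735 CPM, and 3 of 6 B cell markers were tested and lower, with a sum of 16.6 to 41.7 CPM against 5.27 to 22.9 CPM. Of 8 endothelial markers 4 were lower, with a sum of 271 to 330 CPM against 248 to 298 CPM. Among 6 astrocyte markers none was lower and 1 was higher. Red blood cell markers, which bear on blood left in the vessels, were tested for all 5 genes, and 3 were higher and none lower, with a sum of 21.2 to 31.5 CPM with WT BM cells and 27.4 to 41.2 CPM with *Tet2*-KO BM cells. In no list apart from that of the neutrophils did a marker pass the adjusted threshold in edgeR, and the part of these cell types in the receptor differences was not tested.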

How the data were processed

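The 9 receptors were picked, and all lists and tests set, with earlier results of these data known. RNA of 12 brains was depleted of ribosomal RNA. Per the labels and the paper, reads were trimmed with Trimmomatic 0.36, aligned to mm10 with STAR 2.5.2b and counted with featureCounts of Subread 1.5.2 where they mapped uniquely to exons. The authors deposited these raw read counts per gene, without normalization. The annotation release and the strand setting are not given in the sources used here. Reads shared by near-identical genes were not counted, and no exon of the 9 overlapped another annotated gene. Symbols came from GENCODE M21 for 49056 of 49315 genes, of which 11630 had no counts.

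From the deposited counts, genes were kept by filterByExpr and normalized by TMM, and the groups were compared in edgeR 4.0.16 (glmQLFit, robust, and glmQLFTest) in R 4.3.3, without covariates, at a threshold of 0.05. *Cxcl1* and *S100a9*, at most 0.617 and 0.628 CPM in the KO group, were kept by their WT levels. Each SE is that of the edgeR log2 fold change. Log2 CPM used a prior count of 2. The alternatives were DESeq2 1.42.0, limma-voom (limma 3.58.1), scaling by DESeq2 size factors or by the upper quartile, leaving the filter out, at least 10 counts in every library, a replicate block and leaving out each mouse. The fitting steps were tested on simulated data. The text names all 9 receptors, every ligand by its receptor, up to 3 genes of smallest p per direction for the receptor and signalling lists, and the 3 nearest genes. Further genes were named after their values were seen. Libraries of a group differed by more than sampling noise (chi-square per degree of freedom 2 to 27.5 over pairs). Each library stands for a separate mouse per the paper, and p-values set the difference between the groups against the spread between mice. Promoter windows were taken from the RefSeq table. No columns of other samples were in the table.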

Additional observations from a re-analysis of the deposited data

Results flagged for a closer look

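In 4 of the 18 combinations of a receptor and a group, the highest mouse stood apart from the next by more than 0.625 of the range of its group, the critical value of Dixon's test for 6 mice, which chance passes in about 1 in 20 groups. These were *Ccr2* in WT replicate 2 (27.5 CPM, next 16.0 CPM), *Ccr2* in *Tet2*-KO replicate 5 (14.7 CPM, next 5.76 CPM), *Cxcr4* in WT replicate 2 (31.6 CPM, next 16.7 CPM) and *Cmklr1* in WT replicate 2 (42.2 CPM, next 29.4 CPM). The combinations are not independent, because they share 2 mice. The same libraries were the highest of their groups in summed monocyte markers, at 868 CPM in WT replicate 2 and 526 CPM in *Tet2*-KO replicate 5. Most of that sum is *Fn1*, at up to 740 CPM in the WT and 428 CPM in the KO group. These libraries were also the highest in summed fibroblast markers, at 1310 and 735 CPM. The part of monocytes or fibroblasts in these values was not tested.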

How the results depend on the processing

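Over all genes, 5 passed the adjusted threshold in edgeR, against 898 with DESeq2, 1863 with limma-voom, 44 without a filter, and 0 with at least 10 counts in every library or with the replicate block. Of the receptors 0 passed in edgeR, 3 with DESeq2 and 6 with limma-voom. With at least 10 counts in every library, 4 receptors were left, 2 of them at an unadjusted p below 0.05, with a median log2 fold change of -0.63, and 7 ligands were at that level in place of 14; this filter removes receptors that are low in some mice. Without each mouse in turn, the genes past the adjusted threshold ranged from 0 to 2257, the receptors past it from 0 to 7, those at an unadjusted p below 0.05 from 4 to 8, those without overlap from 1 to 4, their median from -1.80 to -1.27 and the ligands from 12 to 16. The upper ends of the gene and receptor calls came without *Tet2*-KO replicate 5, and 8 of 12 such fits called 0 genes. The 4 receptors at an unadjusted p below 0.05 came without WT replicate 2, beside 7.92% of all genes lower at that level. For the other alternatives that share was not computed, nor was the share of all genes without overlap. The receptor counts of those fits are therefore not set against all genes. The log2 fold change of *Ackr3* turned positive with limma-voom (0.073), upper quartile scaling (0.005) and without *Tet2*-KO replicate 1 (0.022), *Tet2*-KO replicate 5 (0.042), WT replicate 2 (0.013) or WT replicate 4 (0.016). Its values over the fits without a mouse ran from -0.13 to 0.04. The cause was not tested. The other receptors kept a negative sign under every alternative in which they were tested.

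Mice with the same replicate number did not deviate together (r from -0.169 to 0.229, above 0.1 in 1 of 6 pairs, and 1 WT mouse nearest to its own number), so the numbers were not used as pairs. Per the paper, cages usually mixed mice of both groups, and these correlations cannot exclude a shared cage or day of surgery. With the replicate block 7 receptors were at an unadjusted p below 0.05 and their median was -1.55. A test of receptors below the expression filter was not run, because all 9 passed it. The SE of the log2 fold change was widest for *Ccr2* (0.65), *Ccr1* (0.60), *Cxcr2* (0.56) and *Cxcr3* (0.53). The 95% intervals are those of edgeR and include the spread between mice, while the limit given for 0 counts covers counting error only.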
